A study of Mus musculus with 4 samples.

Results

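The genes described here were 9 genes of the interferon response and of antigen presentation, taken by name from a fixed list out of 31053 genes in the count matrices. They were B2m, H2-K1 and H2-D1 of MHC class I, the interferon-induced effectors Ifi27, Isg15, Bst2 and Ifit3, and the transcription factors Irf7 and Irf9. All 9 were found in every matrix. The cells came from the ventromedial prefrontal cortex (prelimbic and infralimbic areas) of male C57BL/6 mice, with an age of 8 weeks in the labels, which the study's methods give as the age at injection, weeks before the tissue was taken. All animals had received retrograde rAAV2 vectors, unilaterally, in 5 projection targets of this cortex (agranular insula, dorsomedial striatum, mediodorsal thalamus, basolateral amygdala and lateral hypothalamus). Each vector carried EGFP and a short barcode under a CAG promoter, and the study used barcode RNA in a neuron as a mark of its projection. The unsorted cells gave 3 libraries, titled for 1 mouse each. A single further library held cells sorted for EGFP, with 3 other mice pooled. No library analysed here came from an animal without virus, so every level below was measured in virus-injected brain. The protocol speaks of cells from 3 mice loaded in 3 lanes and does not exclude mixing before loading, so p-values measure the spread between libraries only.

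Type I interferon binds a receptor on almost every cell type and acts through JAK kinases and a transcription factor complex that includes IRF9 and binds the interferon-stimulated response element (ISRE) of its target genes. Among those targets are antiviral effectors, IRF7, which amplifies interferon production, and the genes that load peptides on MHC class I for display to CD8 T cells. Resting cortical neurons are known for low MHC class I, whereas microglia and endothelial cells display it readily.

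The promoters of the members differed in the exact motif words found in them, and 6 windows are printed because they hold these letters. RefSeq (GRCm38.p6) gave 10 promoter windows for 8 of the 9 members, from 250 bases before to 50 after a start site. Ifi27 was not in that table. The ISRE core TTTCNNTTTC, read on both strands and so also as GAAANNGAAA, stood in 3.44% of all 32851 promoter windows and in those of B2m, Isg15, Bst2 and Ifit3. Matches overlapped in Isg15 (3 matches) and Bst2 (2 matches) and lay apart in Ifit3 (2 matches). Only the exact word was counted, so a near form, such as tttcacttct in the H2-K1 and H2-D1 windows below, was not. The next 4 windows are written 5′ to 3′ on the gene's strand, with ISRE cores in capitals.
B2m (chr2:122147523-122147582, + strand): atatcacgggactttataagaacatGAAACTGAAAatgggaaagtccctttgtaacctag
Isg15 (chr4:156200856-156200915, - strand): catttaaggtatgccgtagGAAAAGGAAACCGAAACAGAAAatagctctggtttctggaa
Bst2 (chr8:71537565-71537624, - strand): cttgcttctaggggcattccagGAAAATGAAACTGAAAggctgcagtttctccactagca
Ifit3 (chr19:34583365-34583424, + strand): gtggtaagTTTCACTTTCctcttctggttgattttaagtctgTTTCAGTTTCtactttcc

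The NF-kB motif, searched on both strands, stood in 8.46% of all windows and in those of B2m, Bst2, H2-K1 and H2-D1. In the H2-K1 and H2-D1 windows below it is in capitals, where 2 matches overlap. These 60-base windows differed in 1 base. Neither motif was in the windows of Irf7 and Irf9. A match of letters is a description and does not show that a factor binds.
H2-K1 (chr17:34000424-34000483, - strand): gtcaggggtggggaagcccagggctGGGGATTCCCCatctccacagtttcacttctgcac
H2-D1 (chr17:35262898-35262957, + strand): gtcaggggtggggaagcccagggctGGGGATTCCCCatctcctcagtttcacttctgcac

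The libraries held 7243 to 8040 cell barcodes (unsorted) and 2075 (sorted), with 54728191 to 87809114 UMIs each, and 82 cell barcodes were found in more than 1 library. The authors' metadata placed 9368 excitatory neurons in 7 subtypes (2463 to 2816 in each unsorted library and 1603 in the sorted one), with a median of 21344 to 23213 UMIs per neuron unsorted and 31669 sorted. The sorted library stood apart in depth and in lacking endothelial cells. Of cells absent from these metadata, 945 to 1086 per unsorted library passed as microglia by Cx3cr1 and P2ry12 (at least 4 UMIs together), and 652 to 805 as endothelial cells by Cldn5 and Flt1. Each gate held all 8 of its independent markers, which summed to 25542 to 26420 CPM (UMIs of a gene scaled to a common total) in microglia and 9232 to 9917 in endothelial cells. In excitatory neurons the microglial markers summed to 36.3 to 39.9 CPM unsorted and 17.1 sorted. The endothelial ones summed to 9.79 to 11.1 CPM unsorted and 7.04 sorted.

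All 9 members were far lower in excitatory neurons than in microglia or endothelial cells, except that the gap was small for Ifi27. B2m, the light chain that every class I molecule needs, was at 25.9, 25.8 and 28.6 CPM in the neurons of unsorted libraries 1, 2 and 3. In microglia it was at 1314, 1383 and 1469 CPM. In endothelial cells it was at 631, 636 and 725 CPM, so the 3 cell types did not overlap. By edgeR's quasi-likelihood test on summed counts, B2m was 6.04 (SE 0.048) higher in microglia than in neurons on the log2 scale (adjusted p = 1.06e-24). It was 4.66 (SE 0.047) higher in endothelial cells than in neurons (adjusted p = 2.89e-23). The endothelial gate also held mural cell RNA, since the 4 mural markers summed to 2395 to 2849 CPM there, against 34.5 to 68.1 CPM in microglia and 13.5 to 14.4 CPM in neurons, and 34.5% to 39.1% of its cells had no UMI of them. In cells without a mural marker UMI, an alternative added after the data were seen, all 9 members were still called higher in endothelial cells than in neurons, B2m by 4.73. All 9 members passed the filter and were called higher in both contrasts, beside 85.4% of all genes called in either direction for microglia and 84.4% for endothelial cells. The share of all genes called higher alone was not counted. The median log2 difference over all genes was -0.14 for microglia and -0.02 for endothelial cells. Most genes differ between such cell types, so the members' calls say little beyond their size. The filter keeps a gene that 1 cell type expresses, and Isg15, Irf7 and Ifit3 were at 0.313, 0.147 and 0.474 CPM in neurons. The direction of their calls was thus largely set by the filter.

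The heavy chains H2-K1 and H2-D1, which hold the peptide, showed a wider gap than B2m, the other class I gene among the 9 members. H2-K1 was at 2.94, 2.45 and 2.18 CPM in the neurons of the unsorted libraries, at 688 to 727 CPM in microglia and at 589 to 623 CPM in endothelial cells. Its log2 difference was 8.46 (SE 0.074) for microglia and 7.91 (SE 0.074) for endothelial cells. H2-D1 was at 11.4, 10.9 and 12.1 CPM in neurons, at 640 to 647 CPM in microglia and at 759 to 786 CPM in endothelial cells. Per UMI of B2m, H2-D1 gave 0.429 ± 0.0097 UMIs in neurons (SD, n = 3) and H2-K1 gave 0.0949 ± 0.019. The same ratios were 0.464 ± 0.025 and 0.509 ± 0.027 in microglia. They were 1.17 ± 0.094 and 0.908 ± 0.042 in endothelial cells. Neurons thus held H2-K1 in a lower ratio to B2m than either other cell type in all 3 libraries. The last 500 bases of the class I transcripts share sequence (9.6% of 50-base words of H2-K1 and 8.92% of those of H2-D1 occur in other genes), so a small part of their UMIs may be misplaced or dropped.

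Isg15, a ubiquitin-like modifier of proteins, was at 0.362, 0.284 and 0.292 CPM in neurons, at 36.7 to 41.5 CPM in microglia and at 224 to 240 CPM in endothelial cells. Irf7 was at 0.0532 to 0.241 CPM in neurons, from 26 UMIs in 7765 unsorted neurons. It reached 2.81 to 5.12 CPM in microglia and 71.3 to 78.0 CPM in endothelial cells. Ifit3, whose product assists recognition of viral RNA, was at 0.444 to 0.532 CPM in neurons, 4.75 to 7.88 CPM in microglia and 48.6 to 54.6 CPM in endothelial cells. For these 3 genes the order neurons, microglia, endothelial cells held without overlap in every library.

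Bst2 (tetherin, which holds budding virus at the membrane) was at 2.10 to 2.51 CPM in neurons, 106 to 116 CPM in microglia and 168 to 201 CPM in endothelial cells. Irf9, a DNA-binding part of the complex that acts on the ISRE, was at 5.59, 5.04 and 4.87 CPM in neurons, 18.6 to 24.2 CPM in microglia and 66.6 to 73.7 CPM in endothelial cells. Its log2 difference from neurons was 2.33 (SE 0.12) in microglia and 3.81 (SE 0.096) in endothelial cells. Irf9 overlaps Rnf31 on the same strand, so part of its counts cannot be told apart from that gene. B2m and Irf7 each overlap a gene on the opposite strand, which would matter only if counting ignored strand.

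Ifi27, a small interferon-induced membrane protein, departed from the others. Its level was 83.5, 87.4 and 82.5 CPM in neurons, 109 to 115 CPM in microglia and 249 to 269 CPM in endothelial cells. The difference from neurons was 0.74 (SE 0.052, adjusted p = 1.24e-10) in microglia and 1.63 (SE 0.047, adjusted p = 1.83e-16) in endothelial cells on the log2 scale. Set as a share of its microglial level, Ifi27 in neurons stood at 75.5%, Irf9 at 25.0% and each of the other 7 members between 0.358% and 8.07%. The 8 microglial markers stood at a median of 0.0809% (0.0627% to 1.29%) by the same measure. In microglia the 6 excitatory neuron markers summed to 707 to 907 CPM. With microglia and endothelial cells limited to those without a Slc17a7 UMI, Ifi27 was 0.91 higher in microglia than in neurons (adjusted p = 7.92e-11). TMM scaling moved the contrast of microglia with neurons by 0.34, and that of microglia with endothelial cells by 0.31, toward microglia relative to plain CPM.

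Between microglia and endothelial cells, 8 of the 9 members were called, beside 64.0% of all genes. B2m was 1.38 (SE 0.041) and H2-K1 0.54 (SE 0.051) higher in microglia on the log2 scale, and 6 members were higher in endothelial cells. The difference fell by 3.83 for Irf7 (SE 0.17), by 2.81 for Ifit3 (SE 0.17) and by 2.27 for Isg15 (SE 0.060) from endothelial cells to microglia. It fell by 1.48 for Irf9, 0.89 for Ifi27 and 0.45 for Bst2. H2-D1 differed by 0.05 (SE 0.041, adjusted p = 0.286), while by plain CPM it was lower in microglia in every library. With DESeq2 its difference was 0.13 (adjusted p = 0.0284), and over all alternatives its call changed under 5 settings.

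**Figure D1:**
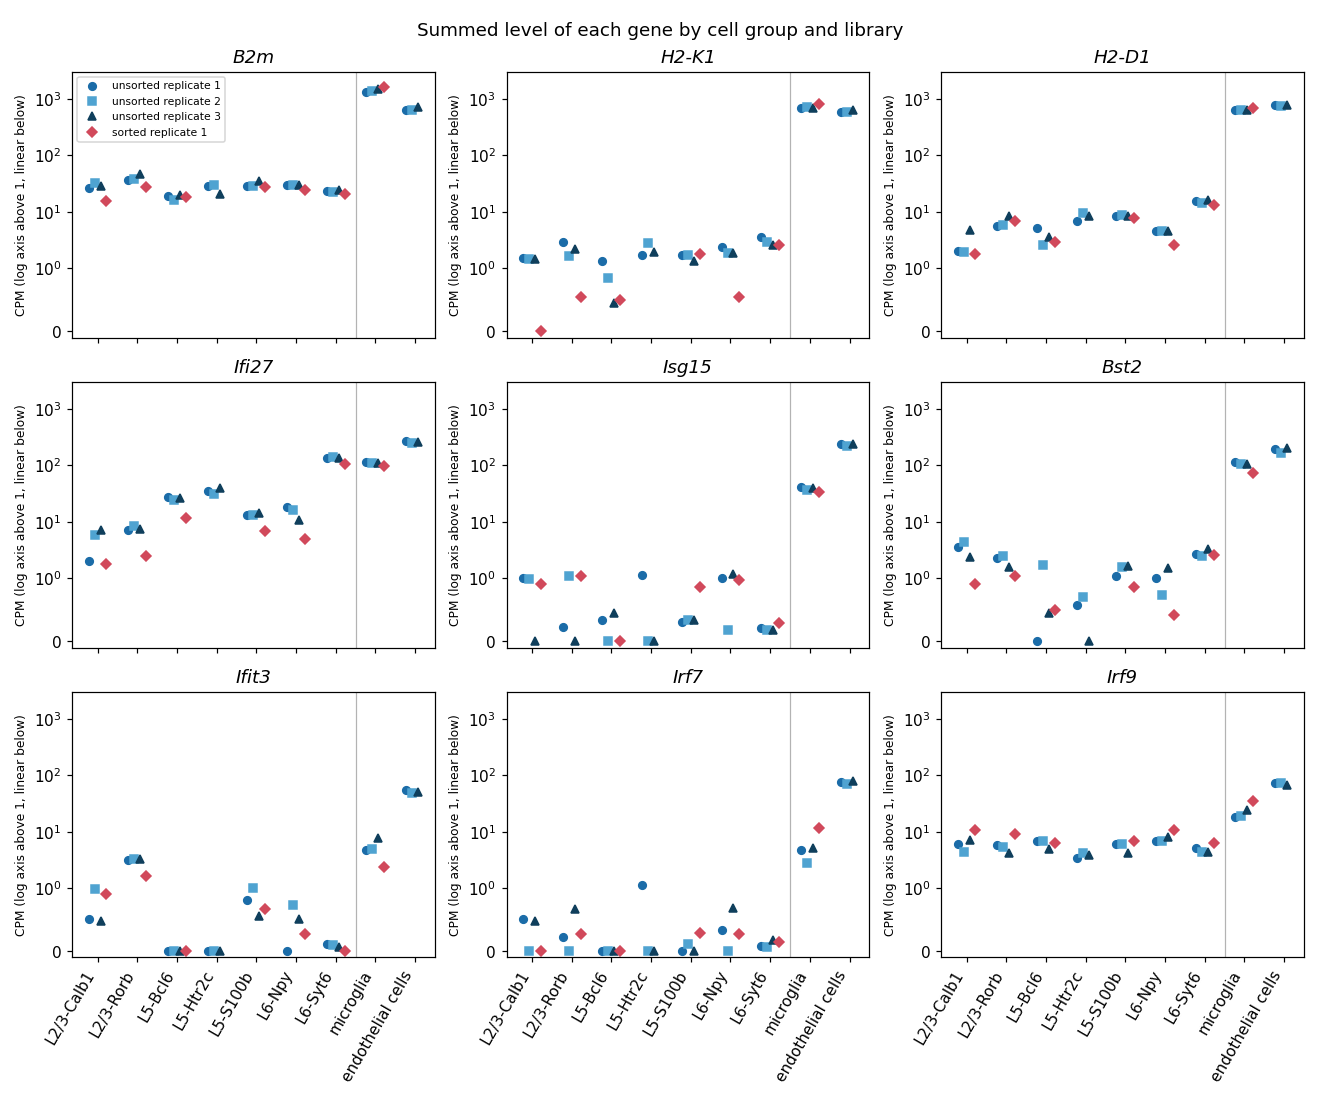
CPM of each member (vertical axis, logarithmic above 1 and linear below) in the 7 neuron subtypes, microglia and endothelial cells, with 1 point per library. Ifi27 in L6-Syt6 neurons sits at 134 to 140 CPM in the unsorted libraries, above its 109 to 115 CPM in microglia, whereas in the unsorted libraries the other members lie lower in every neuron subtype than in microglia.

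**Figure D2:**
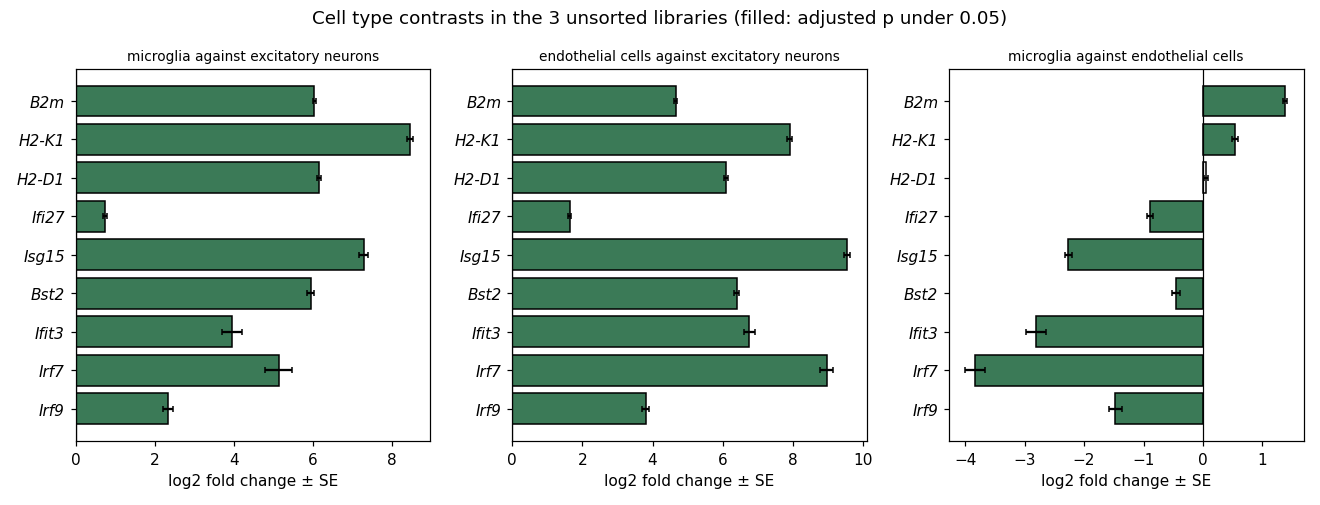
Log2 fold change of each member (horizontal axis, bars, with SE) for the 3 contrasts of cell types in the 3 unsorted libraries, where filled bars passed an adjusted p of 0.05. All members are higher in both other cell types than in neurons, and only B2m and H2-K1 are called higher in microglia than in endothelial cells.

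Within neurons, Ifi27 was concentrated in the L6-Syt6 subtype, a layer 6 group named for Syt6. It was at 137, 140 and 134 CPM in L6-Syt6 neurons of the unsorted libraries and at 104 CPM in the sorted one. The next subtype, L5-Htr2c, was at 34.9, 30.7 and 39.8 CPM, followed by L5-Bcl6 at 24.3 to 27.4 CPM. L6-Npy (10.96 to 18.1 CPM) and L5-S100b (13.01 to 14.5 CPM) overlapped each other. L2/3-Rorb (7.20 to 8.52 CPM) and L2/3-Calb1 (2.06 to 7.26 CPM) were lowest and also overlapped. The subtype means thus spanned 27.0-fold, from 5.07 ± 2.7 to 137 ± 2.9 CPM (SD, n = 3). The subtypes were clustered on the same cells, so these levels are a description without a test.

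By cells, 84.5% ± 1.2 of L6-Syt6 neurons had an Ifi27 UMI and 29.6% ± 3.5 of L5-Htr2c neurons did, at median depths of 23076 and 14549 UMIs. With each neuron thinned to 10000 UMIs these shares were 66.8% ± 1.5 and 22.2% ± 3.1, and that of L2/3-Rorb was 4.58% ± 1.1. Thinning left out 89 of 4319 L6-Syt6 neurons and 15 of 317 L5-Htr2c neurons. A neuron held up to 20 Ifi27 UMIs. The neighbouring gene Ifi27l2a was at 0.704 ± 0.17 CPM in unsorted neurons, and no 50-base word from the ends of Ifi27 transcripts occurred in another gene.

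Ifit3 was highest in the L2/3-Rorb subtype. It was at 3.15, 3.30 and 3.35 CPM in L2/3-Rorb neurons of the unsorted libraries and at 1.63 CPM in the sorted one. The next subtypes, L5-S100b (0.559 to 1.03 CPM) and L2/3-Calb1 (0.484 to 0.983 CPM), overlapped each other, and L6-Syt6 was at 0.0605 to 0.117 CPM. No Ifit3 UMI was counted in the 315 L5-Bcl6 and 317 L5-Htr2c neurons of the unsorted libraries, which allows up to 0.952% and 0.946% of these cells to have such a UMI and sets no limit on cells that express the gene. The L2/3-Rorb level rests on 41 UMIs, with no more than 1 in any neuron, and 7.30% ± 0.56 of L2/3-Rorb neurons had one (3.35% ± 0.83 thinned). Of the 50-base words at its transcript end, 14.9% are shared with the near copy Ifit3b.

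The class I genes did not rank alike. B2m was highest in L2/3-Rorb, at 36.7, 38.5 and 46.9 CPM, apart from L5-S100b (29.0 to 35.2 CPM) below it, and lowest in L5-Bcl6 (16.2 to 20.3 CPM). H2-D1 was highest in L6-Syt6, at 14.3 to 16.1 CPM, apart from L5-S100b (8.60 to 8.79 CPM), and lowest in L2/3-Calb1 at 2.95 ± 1.6 CPM. H2-K1 was also highest in L6-Syt6 (2.63 to 3.66 CPM), where it overlapped L2/3-Rorb (1.65 to 2.93 CPM). Per B2m UMI, H2-D1 was at 0.644 ± 0.020 in L6-Syt6 neurons and at 0.161 ± 0.017 in L2/3-Rorb neurons. The microglial ratio of 0.464 lay between these.

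Bst2 was highest in L2/3-Calb1 (2.42 to 4.43 CPM) and L6-Syt6 (2.47 to 3.30 CPM), which overlapped, and lowest in L5-Htr2c, at 0.427 ± 0.37 CPM from 2 UMIs. Irf9 varied least, from 3.86 ± 0.35 CPM in L5-Htr2c to 7.32 ± 0.63 CPM in L6-Npy. For Isg15 and Irf7, all neighbouring subtypes overlapped, at means of up to 0.806 and 0.388 CPM, and no order could be read at this depth. The microglial markers summed to 43.4 to 45.0 CPM in L6-Syt6 and to 20.2 to 38.4 CPM in the other subtypes. The 4 mural markers summed to means of 18.5 CPM in L6-Syt6, 29.1 in L5-Htr2c and 26.2 in L5-Bcl6, the subtypes highest for Ifi27. Their means were 1.76 to 7.62 CPM in the other subtypes, and a link to Ifi27 was not tested. In neurons without a UMI of 6 microglial and endothelial genes, which were 81.3% of all, the L6-Syt6 levels were 136 ± 3.2 CPM for Ifi27, 15.2 ± 0.67 for H2-D1 and 2.71 ± 0.45 for Bst2.

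Few neurons had UMIs of several of Isg15, Ifit3, Irf7 and Bst2. Of 9368 neurons, 14 had UMIs of at least 2 of these genes and 0 had 3, which allows a share of up to 0.032% with UMIs of 3, not a limit on neurons that express them. In the unsorted libraries 42.4% of 2135 endothelial cells (Wilson 95% interval 40.3% to 44.5%) and 7.02% of 2992 microglia (6.16% to 7.99%) had at least 2, at lower median depths of 3351 and 4376.5 UMIs. Intervals and limits cover counting error only.

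Over 27 sums of subtype and library, the genes whose log2(CPM + 1) followed Ifi27 most closely were Atp6ap2, Cct8 and Ndn (Pearson r = 0.95, 0.94 and 0.94). Those closest to H2-D1 were Sept7, Pcp4 and Psmc5 (r = 0.91, 0.91 and 0.88). Scn7a, Ing2 and 1110046J04Rik were closest to Ifit3 (r = 0.91, 0.90 and 0.90). For B2m the closest were Adk, Coprs and Smarcd3 (r = 0.80 to 0.82). For H2-K1 they were Fxyd7, Acyp1 and Fam192a (r = 0.85 to 0.86), and for Irf9 they were Tef, Zfp651 and Slk (r = 0.84 to 0.86). Selenos, Ltv1 and Arpc2 were closest to Bst2 (r = 0.77 to 0.80). For Isg15 (Prpf4, Ankrd39 and Smarcad1) and Irf7 (Zc3h3, Hemk1 and 3110062M04Rik) the closest reached r = 0.72 and 0.58. The sums share 4 libraries and their depths, so these values are descriptions.

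The next comparison asked whether the members differed between neurons rich in viral barcode RNA and neurons without it, inside a subtype. The feature named barcode is 1 row that does not separate the targets, so the amount of barcode RNA and the choice of target cannot be told apart, and whether the row sums all 5 barcodes was not tested. Barcode-free means that no barcode UMI was counted, not that a neuron held no virus, since 94 EGFP-sorted L6-Syt6 neurons had 0 barcode UMIs. In the unsorted libraries 4.75% to 5.83% of microglia and endothelial cells had at least 1 barcode UMI, 0.423% to 1.92% had at least 5 and 0.184% to 1.25% had at least 20, at shallower depths than neurons. The same shares in L6-Syt6 neurons were 46.3% to 50.4%, 27.1% to 28.5% and 6.24% to 8.34%. Neurons with 20 or more barcode UMIs were set against those with 0, summed per library, with the library as a block. In L6-Syt6, 476 neurons had 20 or more barcode UMIs and 2327 had 0. Of the 6 members that passed the filter on low counts, 4 were called and all 4 were higher, beside 23.0% of all 12393 genes called and 13.5% called higher. The other 3, Isg15, Ifit3 and Irf7, had too few counts to test.

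Ifi27 in barcode-free L6-Syt6 neurons was at 123.3, 130 and 122 CPM in unsorted libraries 1, 2 and 3 and at 62.8 CPM in the sorted library. In barcode-rich neurons it was at 172, 207, 161 and 146 CPM in the same order. Every barcode-rich sum lay above every barcode-free one, and the sorted library was lowest in both. The share of all genes whose sums lay apart in this way was not counted. The log2 difference was 0.70 (SE 0.093, adjusted p = 1.09e-05). With 5 to 19 barcode UMIs it was 0.43 (SE 0.086, adjusted p = 0.00309), and with 1 to 4 it was 0.00 (SE 0.081), all against the same barcode-free neurons. Without the sorted library the difference was 0.55 (adjusted p = 7.25e-13).

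H2-D1 in barcode-free L6-Syt6 neurons was at 14.8, 13.8, 16.1 and, in the sorted library, 9.29 CPM. In barcode-rich neurons it was at 22.1, 18.5, 18.7 and 20.1 CPM. Again no barcode-free sum reached a barcode-rich one, with no share of all genes to set beside it. The log2 difference was 0.59 (SE 0.12, adjusted p = 0.000688), or 0.45 without the sorted library (adjusted p = 0.0062). With 5 to 19 barcode UMIs the difference was 0.04 (SE 0.099, adjusted p = 0.833), so of the 3 barcode groups only the richest passed the test against barcode-free neurons.

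Bst2 was at 2.46, 1.54, 3.33 and 1.49 CPM in barcode-free neurons (sorted library last) and at 2.15, 6.46, 4.26 and 3.52 CPM in barcode-rich ones. It was higher in 3 of 4 libraries and lower in unsorted library 1, and the groups overlapped. The log2 difference of 0.85 (SE 0.28, adjusted p = 0.0353) became 0.44 (adjusted p = 0.33) without unsorted library 2 and was also not called without the sorted library (0.77, adjusted p = 0.0871). H2-K1 was at 3.26, 2.73, 2.18 and 1.49 CPM in barcode-free and at 4.29, 3.87, 2.95 and 3.52 CPM in barcode-rich neurons. It was higher in 4 of 4 libraries, and the groups overlapped. Its difference of 0.63 (SE 0.23, adjusted p = 0.0481) lost its call without any 1 of the libraries (adjusted p = 0.0857 to 0.279). These 2 calls rest on 56 and 53 UMIs in barcode-rich neurons.

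B2m, which the heavy chains pair with, did not pass the test in L6-Syt6. It was at 24.9, 22.2, 24.1 and 13.7 CPM in barcode-free neurons and at 18.4, 24.1, 21.6 and 19.1 CPM in barcode-rich ones, with a log2 difference of -0.07 (SE 0.12, adjusted p = 0.738). Irf9 differed by 0.04 (SE 0.21, adjusted p = 0.933). Isg15 had 2 UMIs, Irf7 1 UMI and Ifit3 0 UMIs in all 476 barcode-rich neurons. Barcode-rich L6-Syt6 neurons were deeper, at medians of 25653 to 40033 UMIs per library against 21684 to 30097. Among neurons of 15000 to 40000 UMIs the log2 difference was 0.67 for Ifi27 (adjusted p = 9.29e-05) and 0.52 for H2-D1 (adjusted p = 0.00471). The 8 microglial markers summed to 36.2 to 55.1 CPM in barcode-rich and 39.9 to 45.0 CPM in barcode-free neurons of the unsorted libraries (27.97 and 19.3 CPM sorted). The endothelial markers summed to 10.2 to 13.8 CPM and 8.42 to 9.44 CPM (4.52 and 5.20 CPM sorted), and none of the 16 markers was at 0 in either group. In neurons without a microglial or endothelial marker UMI, Ifi27 differed by 0.69 (adjusted p = 1.47e-05) and H2-D1 by 0.55 (adjusted p = 0.00435).

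Summed, the 4 mural markers moved with the barcode in the opposite direction, and Rgs5 carried this shift. They summed to 20.99 to 23.2 CPM in barcode-free L6-Syt6 neurons of the unsorted libraries (34.5 sorted) and to 4.91 to 8.18 CPM in barcode-rich ones (3.18 sorted), without overlap. Nearly all of these UMIs were of Rgs5, at 20.2 to 34.5 CPM and 3.18 to 8.18 CPM. Pdgfrb and Kcnj8 were at 0 in barcode-rich neurons and at no more than 8 UMIs in any barcode-free sum, too few to show a shift. In neurons without a mural marker UMI, Ifi27 differed by 0.59 (adjusted p = 5.53e-07) and H2-D1 by 0.52 (adjusted p = 0.00311). Bst2 (0.82, adjusted p = 0.0539) and H2-K1 (0.57, adjusted p = 0.116) were then not called.

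**Figure D3:**
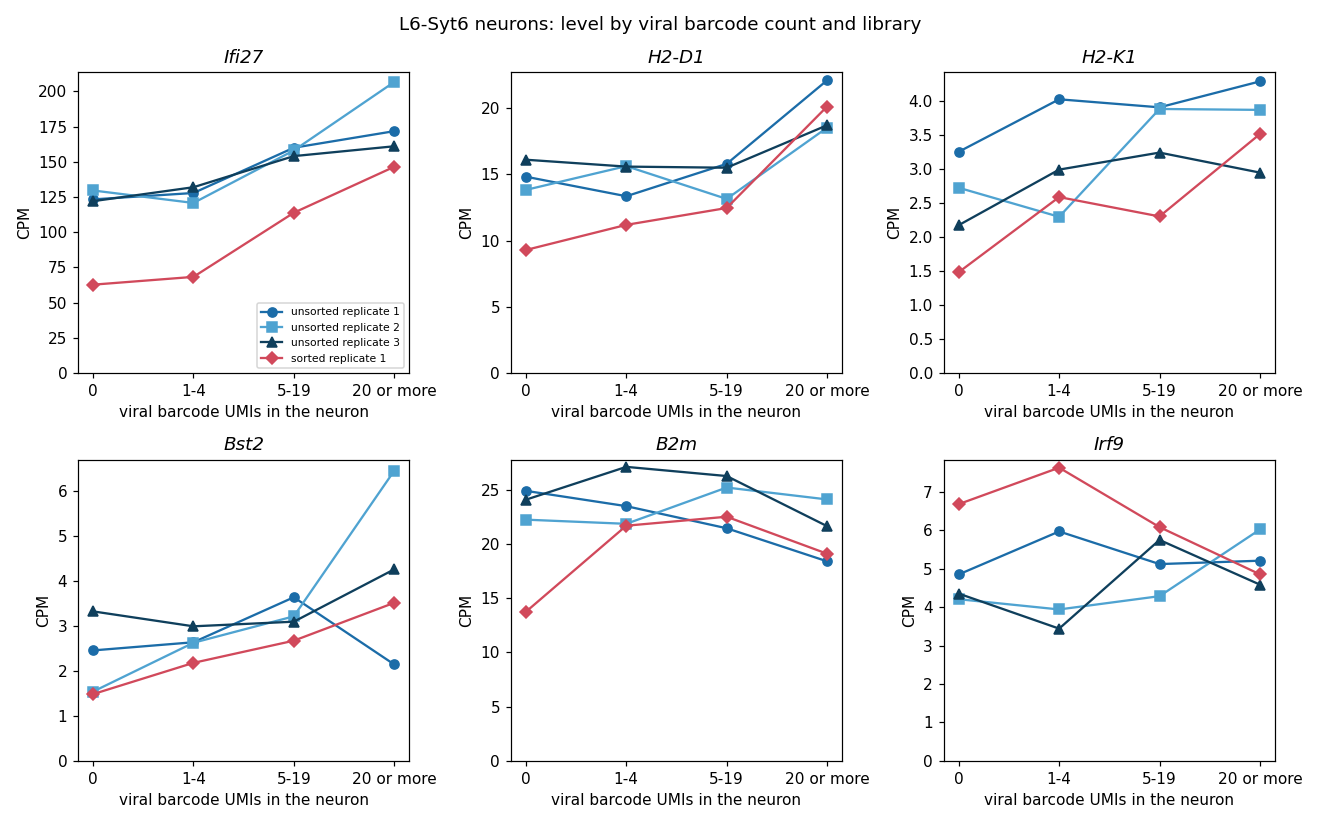
CPM (vertical axis) of the 6 tested members in L6-Syt6 neurons with 0, 1 to 4, 5 to 19 and 20 or more viral barcode UMIs, with 1 line per library. Ifi27 lies at 146 to 207 CPM in barcode-rich against 62.8 to 130 CPM in barcode-free neurons, and B2m shows no shift shared by the libraries.

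L2/3-Calb1 and L5-Htr2c held too few barcode-rich neurons for the test (27 and 1). In the remaining 4 subtypes few members had enough counts. In L6-Npy (112 barcode-rich and 232 barcode-free neurons) 3 members were tested and 1, Ifi27, was called, beside 4.43% of all genes. Ifi27 was at 16.3, 17.9, 3.47 and 5.10 CPM (sorted last) in barcode-free neurons and at 24.8, 39.5, 23.6 and 4.61 CPM in barcode-rich ones. It was higher in the 3 unsorted libraries and not in the sorted one. The log2 difference was 1.16 (SE 0.32, adjusted p = 0.0252), became 0.84 (adjusted p = 0.238) without unsorted library 3, and lost its call without unsorted library 2 (1.18, adjusted p = 0.12). It was also not called in neurons without a mural marker UMI (1.08, adjusted p = 0.0516). B2m and Irf9 were not called there.

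In L5-S100b (549 and 195 neurons) 4 members were tested and 0 called by edgeR or by DESeq2, beside 10.0% of all genes by edgeR, and 1 of the 4, Ifi27, had an unadjusted p under 0.05. Ifi27 differed by 0.58 (SE 0.24, adjusted p = 0.125). H2-D1 was at 9.05, 8.64, 10.6 and 12.5 CPM in barcode-free and at 7.95, 8.12, 8.56 and 5.00 CPM in barcode-rich L5-S100b neurons. Each barcode-rich sum lay below each barcode-free one, and the share of all genes that did so was not counted. The difference of -0.36 (SE 0.26) had an adjusted p of 0.47. In L5-Bcl6, where the sorted library had no barcode-free sum, B2m and Ifi27 were tested and in L2/3-Rorb only B2m. There 0 were called by either tool and 0 had an unadjusted p under 0.05, beside 0.322% and 0.549% of all genes.

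The difference between subtypes was fitted directly, a test added after the data were seen. The barcode effect on H2-D1 was 0.95 (SE 0.29) larger on the log2 scale in L6-Syt6 than in L5-S100b (adjusted p = 0.0226), beside 11.9% of all genes with such a difference. Without the sorted library it was 0.60 (adjusted p = 0.27), and without unsorted library 1 it was 1.03 (adjusted p = 0.0766). Ifi27 did not pass this test, with a difference of 0.12 (SE 0.36, adjusted p = 0.89). Against L6-Npy, 0 of the 5 members tested passed by edgeR, 0 of them with an unadjusted p under 0.05, beside 6.23% of all genes. DESeq2 was not run for this difference. Ifi27 differed there by -0.46 (SE 0.41, adjusted p = 0.628).

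**Figure D4:**
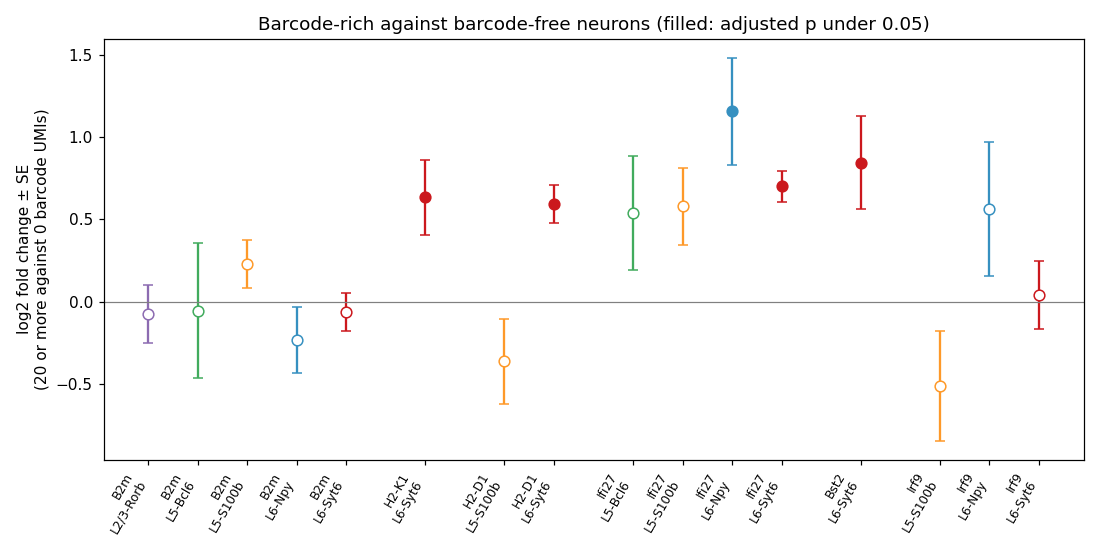
Log2 fold change with SE (vertical axis) of barcode-rich against barcode-free neurons for each member and subtype that could be tested, where filled points passed an adjusted p of 0.05. The 5 filled points are Ifi27, H2-D1, H2-K1 and Bst2 in L6-Syt6 and Ifi27 in L6-Npy.

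Other genes of the pathway were read against the 23.0% of all genes called in L6-Syt6 (13.5% of all called higher), 10.0% called in L5-S100b and 4.43% in L6-Npy. Of 36 further interferon-stimulated genes in the matrices, 11 could be tested in L6-Syt6 and 0 were called by edgeR or DESeq2 (1 had an unadjusted p under 0.05 in each), with a median log2 difference of 0.03 against -0.01 over all genes. Of 12 tested genes of class I presentation 3 were higher and 1 lower, with a median of 0.22, and DESeq2 called 3 of the 12. Higher were Pdia3 (0.46, SE 0.093) and Calr (0.32, SE 0.042), chaperones of class I loading that serve other proteins too, and Psme1 (0.31, SE 0.11), a proteasome activator subunit. H2-T23, a non-classical class I gene, was lower (-0.62, SE 0.15). Of 15 tested receptor and signalling genes, Ifnar2 (0.63, SE 0.12), a chain of the type I receptor, and the kinase gene Jak1 (0.15, SE 0.050) were higher. Of 2 tested class II genes H2-DMa was higher (0.56, SE 0.096), and of 4 nucleic acid sensors 0 were called by edgeR or DESeq2, 0 also at an unadjusted p under 0.05. In L5-S100b Psme1 was lower (-0.49, SE 0.14) and in L6-Npy the receptor chain Ifnar1 was lower (-0.87, SE 0.26), and no other listed gene was called in the 5 subtypes. Each call is an adjusted p under 0.05 from edgeR.

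The levels of these lists were also compared between cell types. All 35 tested interferon-stimulated genes were called higher in endothelial cells than in neurons, with a median log2 difference of 7.03, beside 84.4% of all genes called in either direction. The filter keeps a gene that 1 cell type expresses, and several of the 35 were near 0 in neurons (Oas1a and Oasl1 at 0 CPM, Gbp2 at 0.0114 CPM). This count and this median were thus partly set by the filter. Between microglia and endothelial cells 32 of the 35 were lower and 1 higher (Lgals3bp, 0.46) in microglia, beside 64.0% of all genes called in either direction. Herc6 and Cmpk2 had the highest neuronal levels of the list, at 22.0 ± 1.1 and 20.0 ± 0.18 CPM, and Irgm1 followed at 5.37 ± 0.27 CPM. Cmpk2 was at 4.31 ± 0.42 CPM in microglia, below neurons. Canx (323 ± 12 CPM), Calr (269 ± 3.0 CPM) and Psmb10 (106 ± 0.34 CPM) led class I presentation in neurons, and Jak1 (120 ± 3.9 CPM), Ifngr2 (65.5 ± 2.5 CPM) and Irf2 (33.1 ± 0.82 CPM) led the receptors and signalling genes. Among sensors, Tbk1 (27.8 ± 0.18 CPM), Samhd1 (8.40 ± 0.49 CPM) and Myd88 (2.19 ± 0.11 CPM) were highest. Ctss, in the class II list, is also 1 of the 8 microglial markers. Of class II genes, H2-DMa was at 18.0 ± 0.17 CPM in neurons, 177 ± 6.0 CPM in microglia and 4.38 ± 1.8 CPM in endothelial cells, while Ctss (2.15 ± 0.053 CPM) and H2-Eb1 (0.424 ± 0.093 CPM) were low in neurons. Of 16 receptor and signalling genes, 13 were called higher and 2 lower in endothelial cells than in neurons, beside the same 84.4% of all genes. By that contrast 20 of 21 class I genes were higher and 1 lower, and 5 of 7 tested class II genes were higher and 1 lower.

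The sorted library was compared with the unsorted ones inside each of the 6 subtypes that held at least 10 sorted neurons, as values only, since it is 1 library. Ifi27 lay below all 3 unsorted libraries in 6 of 6 subtypes. In L6-Npy it was at 4.97 CPM sorted against 10.96 to 18.1 CPM, and in L5-S100b at 6.81 against 13.01 to 14.5 CPM. B2m lay below in 5 of 6 subtypes, as in L2/3-Rorb at 27.5 against 36.7 to 46.9 CPM. Of all genes, 17.0% lay below the unsorted range in at least 5 of the 6 subtypes. H2-D1 and Bst2 lay below in 4 subtypes, and H2-K1 below in 4 and above in 1, counts for which no share of all genes was taken. Bst2 rests there on 1 to 9 sorted UMIs per subtype. H2-K1 rests on 0 in L2/3-Calb1, 2 in L2/3-Rorb and 4 in L6-Npy.

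Irf9 went the other way and lay above the unsorted range in 5 of 6 subtypes, where 31.1% of all genes did so in at least 5. It was at 9.26 CPM sorted against 4.24 to 5.85 CPM in L2/3-Rorb and at 6.30 against 4.31 to 5.18 CPM in L6-Syt6. Isg15, Ifit3 and Irf7 were at or near the level of a few UMIs and are not ranked. Sorted neurons were deeper and had a lower summed level of microglial markers, as given above. In neurons without microglial or endothelial marker UMIs, Ifi27 still lay below in 6 of 6 subtypes and Irf9 above in 5 of 6, while B2m lay below in 4. The sort, the animals, the pooling and the library cannot be told apart.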

How the data were processed

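The authors made the deposited UMI counts with Cell Ranger v3.0.2 from 10x 3' libraries, against mm10 with the viral barcodes added. Their cell filter asked for 500 to 8000 genes, 1000 to 60000 UMIs and at most 20% mitochondrial UMIs. They deposited the subtype of 9368 neurons. Whether counting used strand is not given in the sources used here. The members and gene lists were chosen with earlier results of these data known. For each library, UMIs of all cells in a group were added up (at least 10 cells), without the barcode feature. Sums were tested with edgeR 4.0.16 (TMM, filterByExpr, quasi-likelihood, library as block, Benjamini-Hochberg over all genes), checked on simulated data. DESeq2 1.42.0 was an alternative. The library pairs the groups compared, since each library of a fit holds both, except the sorted library in L5-Bcl6, which had no barcode-free sum. Cell types were compared in the 3 unsorted libraries only. The SE is the log2 fold change over the root of the F statistic. Levels are CPM of summed counts, with SD over the unsorted libraries. The same cell filter was applied to microglia and endothelial cells, cells passing both gates (8 to 11 per unsorted library) were left out, and no doublet caller was run. Named beside the members were listed genes called in a barcode contrast, the 3 most abundant of each list in neurons, and the 3 genes most like each member (mean of at least 5 CPM). Gene models were GENCODE M21 (GRCm38, as mm10). The study compared single cells, while here libraries were the replicates.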

Additional observations from a re-analysis of the deposited data

Results flagged for a closer look

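The barcode effect on H2-D1 differed between subtypes, being 0.95 larger on the log2 scale in L6-Syt6 than in L5-S100b neurons by a test of the difference itself (edgeR, adjusted p = 0.0226). It was 0.60 to 1.11 larger when 1 library was left out, and passed the test in 2 of those 4 fits. The cause was not tested.

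In 102 groups of 4 libraries (a member, subtype and barcode count, with at least 10 UMIs in all), 9 held a library far from the other 3 by Dixon's criterion, where chance flags about 1 in 20. Of these, 5 were low values of Ifi27 in the sorted library. They were 62.8 CPM (0 barcode UMIs) and 114 CPM (5 to 19) in L6-Syt6, and with 20 or more barcode UMIs 1.67 CPM in L2/3-Rorb, 4.70 CPM in L5-Bcl6 and 6.87 CPM in L5-S100b. The sorted library also differs in depth and in its animals, which cannot be told apart here. The other 4 were in unsorted libraries. Ifi27 with 1 to 4 barcode UMIs was high at 18.2 CPM in L2/3-Rorb (library 2) and at 20.9 CPM in L6-Npy (library 1). Irf9 was low at 5.29 CPM in L6-Npy with 5 to 19 barcode UMIs (library 1), and Isg15 was high at 0.59 CPM in L6-Syt6 with 5 to 19 (library 3), from 4 UMIs.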

How the results depend on the processing

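Of the counts of genes called with 20 or more barcode UMIs against 0, that of L6-Syt6 (2854) became 693 with a log2 fold change of at least 0.5 required. That of L5-S100b (1105) became 707 with 5 or more against 0 and 508 with the fold limit. That of L6-Npy (447) became 208, 291 with DESeq2 and 280 with the fold limit. That of L2/3-Rorb (51) became 10 against 1 to 4 barcode UMIs, 12 with 5 or more, 11 with DESeq2, 33 with the fold limit and 109 without the filter on low counts. That of L5-Bcl6 (26) became 12 with 5 or more, 0 with DESeq2 (185 at an unadjusted p under 0.05), 63 without the filter and 2 without neurons holding glial or endothelial marker UMIs. Leaving out 1 library gave 1981 to 2402 genes in L6-Syt6, 684 to 964 in L5-S100b, 279 to 399 in L6-Npy, 24 to 57 in L2/3-Rorb and 0 to 41 in L5-Bcl6 (0 by edgeR without unsorted library 1, with 508 at an unadjusted p under 0.05).

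Without the replicate block (the library), edgeR called 664 genes in L6-Syt6, 282 in L5-S100b and 118 in L6-Npy, while L2/3-Rorb and L5-Bcl6 had 0 each (365 and 359 at an unadjusted p under 0.05). The L6-Syt6 differences were then 0.66 for Ifi27 (adjusted p = 0.119), 0.52 for H2-D1 (0.0744), 0.73 for Bst2 (0.193) and 0.49 for H2-K1 (0.344), and Ifi27 in L6-Npy was at 1.23 (0.6), so these 5 calls need the block. Of 14 alternatives in L6-Syt6, Ifi27 was called in 13 (adjusted p = 6.8e-30 to 0.119), H2-D1 in 12 (1.34e-05 to 0.11), Bst2 in 8 (0.0118 to 0.33) and H2-K1 in 2 (0.0464 to 0.344). H2-D1 was also not called with 5 or more barcode UMIs (0.23). Ifi27 in L6-Npy was called in 7 (0.00221 to 0.6). The causes of these changes were not tested beyond the smaller numbers of genes, cells or libraries that some settings leave.

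As the mean of per-cell CPM, Ifi27 in L6-Syt6 was at 129 and Ifit3 in L2/3-Rorb at 3.52, and Ifit3 was at 3.53 CPM in neurons without glial or endothelial marker UMIs. No result changed direction among called values. Counts of the 3 cell type contrasts stayed within 1.5 times under each alternative, and there 1 member call was lost, Bst2 between microglia and endothelial cells with the fold limit. Low counts limited Isg15, Ifit3 and Irf7 in neurons.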
